A study of Danio rerio with 15 samples.

Results

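Cytochrome P450 genes were followed in zebrafish ventricles at the end of phenylhydrazine treatment and in recovery from it. The members were the genes whose single symbol in the array's annotation starts with cyp and a digit, 75 of the 19260 genes measured, each read from its brightest transcript cluster (the array's unit of about 1 gene). Of these, 19 had a mean log2 signal of 5 or more over all arrays and are called bright here, and 56 were dimmer and are described apart. Another 6 clusters carry several symbol entries, among them the one shared by cyp1a and mpx, and were not used. In 1 of these 6 the entries repeat a single symbol, cyp2v1. That gene, with a mean log2 of 5.46, is therefore missing from the members and from all counts of bright genes. The study gave zebrafish phenylhydrazine, which destroys red blood cells, in the water for 30 min at intervals of 3 days over 5 weeks (1.25 µg/mL in the first week, 2.5 µg/mL later), and then let them recover. Hearts were collected when treatment ended and in recovery, at 2, 5 and 9 days, and were set against hearts of control fish handled alike but without phenylhydrazine. Each of the 5 groups had 3 arrays, and each array the pooled RNA of 3 ventricles. The labels give no strain, age, sex or genotype and no separate control for each recovery day, so recovery and sampling day cannot be told apart. No measure of anaemia was used, and all treated fish had phenylhydrazine. Effects of the compound itself and of red cell loss therefore cannot be told apart.

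Cytochrome P450 enzymes hold a haem group and use it to put oxygen into fats, sterols, steroids, vitamins and foreign compounds. Most sit in the endoplasmic reticulum and take electrons from P450 oxidoreductase, while some sit in mitochondria and take them from ferredoxin. The families with the lowest numbers (1 to 4) oxidise foreign compounds and fatty acids, and the higher numbers mostly make or break down sterols, steroids, vitamin D and retinoic acid. In mammalian heart muscle CYP2J enzymes turn arachidonic acid into epoxides that act on vessels. Families 1 to 4 held 47 of the members, 12 of them bright, and the other families 28 members, 7 of them bright.

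All values are log2 signals, and differences are log2 differences ± standard error from limma, fitted over all 15 arrays with n = 3 per group. A gene rose, fell or was called where its p, adjusted after Benjamini and Hochberg over all 19260 genes, was under 0.05. Where a call is said to be lost without certain arrays, each was left out alone, and the range of the difference and its adjusted p are given. Adjustment over every transcript cluster takes in all 75212 clusters. Levels are compared within a gene only. The 4 comparisons with control share their 3 control arrays. Array medians lay between 4.02 and 4.10. Of 7 cardiomyocyte markers 6 were measured, all of them bright. Of 12 liver markers 10 were measured, 9 of them dim, and all 5 intestine and all 5 steroid-making tissue markers (the member cyp17a2 among them) were dim. Limma called 0 of these 20 markers against control at any time, and at an unadjusted p under 0.05 at most 2 of the liver, 1 of the intestine and 0 of the steroid-making markers. Between 9 and 5 days limma called 1 liver marker lower. At 5 days the arrays' mean over the 10 liver markers ran from 3.88 to 4.40, against 3.82 to 4.08 in control hearts. At 5 days against the end of treatment 3 of the 10 had an unadjusted p under 0.05 (limma). The part of liver RNA in the P450 results was not tested. Probe sequences were not used, so signal shared between near-identical neighbouring P450 genes cannot be told apart.

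At the end of treatment 7 bright P450 genes were higher and 4 lower than in control hearts, led by cyp2aa7 (4.25-fold higher), cyp26b1 (2.28-fold higher), cyp2ad2 (3.83-fold lower) and cyp2ad6 (2.04-fold lower). These 11 of 19 genes stand beside 36% of all genes with a mean of 5 or more (21.1% higher and 14.9% lower) and 24.2% of all genes. At 2 days 7 were called, 5 higher and 2 lower, where 18% of the genes with a mean of 5 or more (11.5% higher and 6.51% lower) and 11.8% of all genes were. At 5 days 6 were called, 4 higher and 2 lower, beside 9.76% (5.77% higher and 3.99% lower) and 6.37%. At 9 days 7 were called, 5 higher and 2 lower, beside 12.2% (6.83% higher and 5.32% lower) and 7.54%. As shares these were 57.9%, 36.8%, 31.6% and 36.8% of the 19 genes. Their median difference from control was 0.11, -0.026, -0.025 and 0.031 at the 4 times in order, and over all genes it was 0.0103, 0.0131, 0.0182 and 0.0125. The F test over the 4 contrasts called 12 of the 19, beside 41.1% of genes with a mean of 5 or more. The 3 arrays lay wholly above or below control for 10, 7, 10 and 10 of the 19 genes at the 4 times, beside 52%, 37.8%, 29.8% and 34.7% of genes with a mean of 5 or more.

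**Figure D1:**
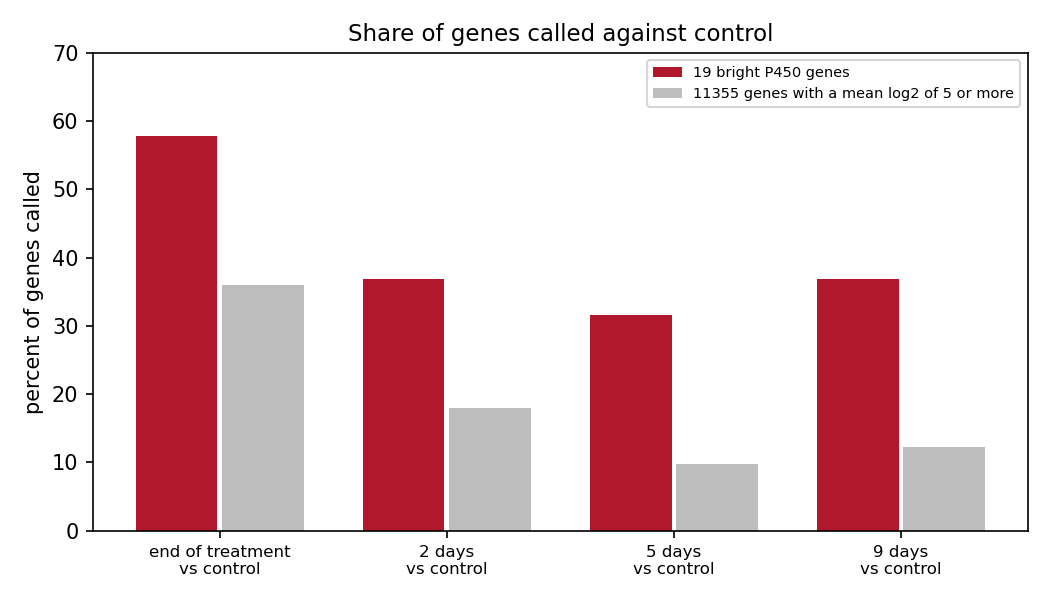
Percent of genes with an adjusted p under 0.05 against control (vertical axis) at the end of treatment and 2, 5 and 9 days later. Red bars are the 19 bright P450 genes (57.9%, 36.8%, 31.6% and 36.8%) and grey bars all 11355 genes with a mean log2 of 5 or more (36%, 18%, 9.76% and 12.2%).

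Over the 4 times, 3 genes were higher in every comparison with control (cyp2aa6, cyp2u1 and cyp3c1) and 1 was lower in every one (cyp2ad2), beside 2.25% and 0.837% of genes with a mean of 5 or more. Another 9 were called at 1 to 3 of the times, and 6 at none. The 13 genes called at any time stand beside 43.8%. None of the 13 was called in opposite directions at different times. At the end of treatment, families 1 to 4 supplied 5 of the rises and all 4 falls, and the other 2 rises were cyp26b1 and cyp27a1.1. Without control replicate 2 or without 5 day replicate 2 the count at 5 days was 3 in place of 6.

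**Figure D2:**
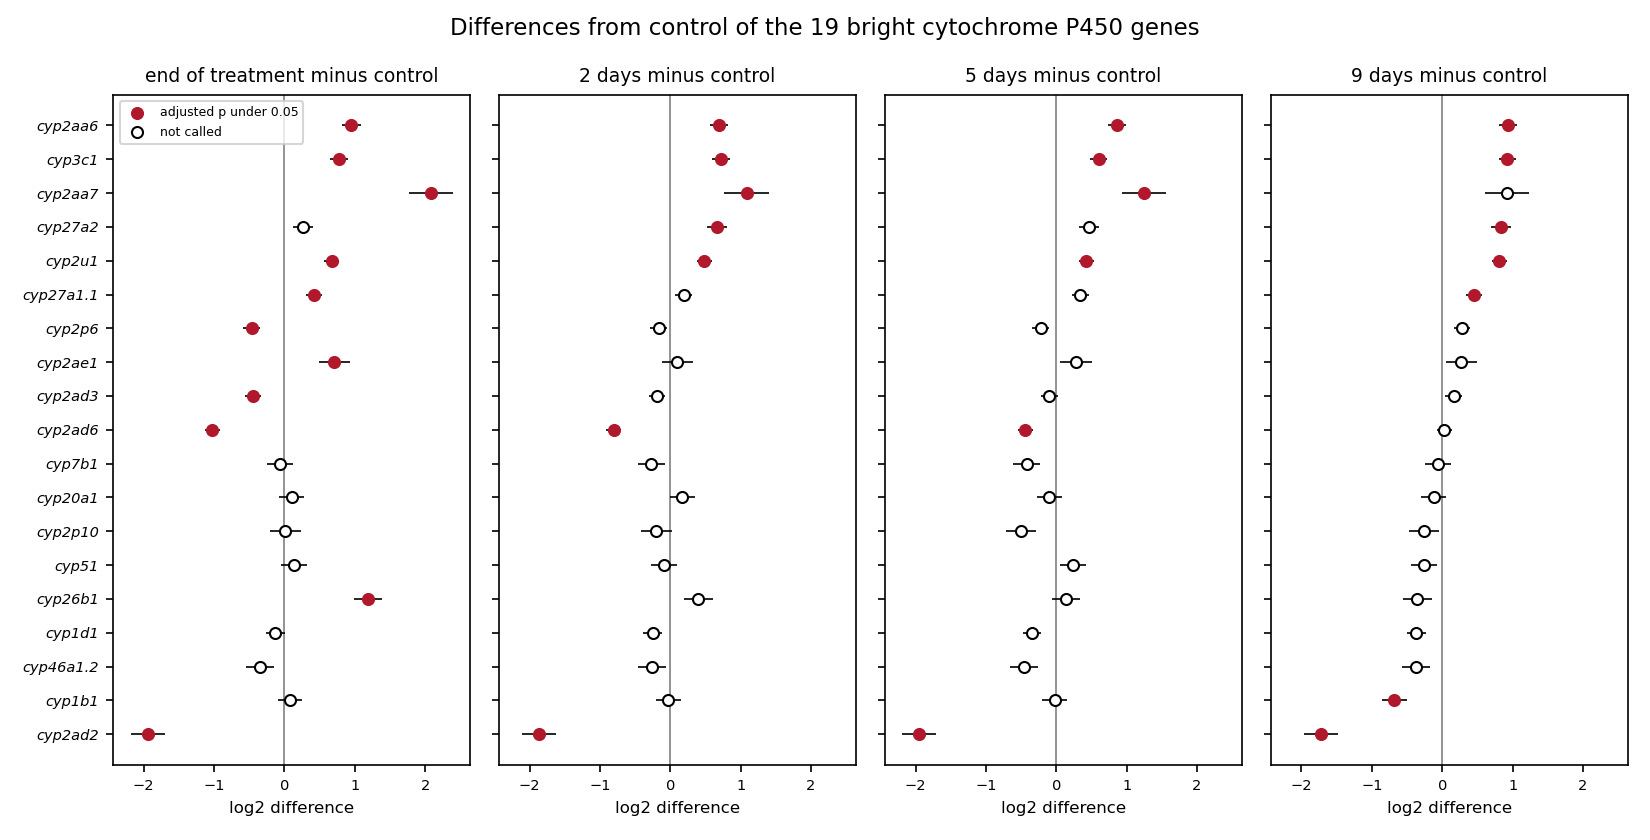
Log2 difference from control (horizontal axis) with its standard error for the 19 bright P450 genes, 1 panel per time, ordered by the difference at 9 days. Filled points passed the test. The point of cyp2ad2 lies between -1.96 and -1.72 in all 4 panels. Each of cyp26b1, cyp2ad6 and cyp2aa7 departs from 0 more at the end of treatment than at the later times. In the end of treatment panel cyp2aa7 (2.09) and cyp2ad2 (-1.94) lie farthest from 0.

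The gene cyp2ad2 belongs to a fish branch of family 2 that lies close to mammalian CYP2J. It measured 5.23, 6.03 and 5.52 at the end of treatment, 6.01, 5.57 and 5.43 at 2 days, 5.89, 5.30 and 5.54 at 5 days and 6.14, 5.96 and 5.35 at 9 days, against 7.18, 7.55 and 7.87 in control hearts. All 12 arrays of treated fish lay below the 3 control arrays. The differences from control were -1.94 ± 0.24 at the end of treatment, -1.86 ± 0.24 at 2 days, -1.96 ± 0.24 at 5 days and -1.72 ± 0.24 at 9 days (3.29-fold lower, adjusted p = 6.98e-04). Between 9 days and the end of treatment it differed by 0.22 ± 0.24, with a 95% interval of -0.30 to 0.74, and did not pass the test.

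In the assembly GRCz12tu cyp2ad2 lies inside a run of 10 neighbouring members: cyp2n13, cyp2ad6, cyp2ad2, cyp2ad3, cyp2p6, cyp2p7, cyp2p8, cyp2p9, cyp2p10 and cyp2j20, in that order. Runs were built from members only, and P450 genes that are no members, such as cyp2v1, were not placed. Of these, 5 were bright (cyp2ad6, cyp2ad2, cyp2ad3, cyp2p6 and cyp2p10). The first 5 genes of the run, of which cyp2n13 is dim, were called lower than control at the end of treatment. Of genes with a mean of 5 or more 14.9% were called lower then, and of dimmer genes 7.36% were called in either direction. These shares are for single genes, and the stretch was marked out by its calls, so they do not test it. The dim genes cyp2p7, cyp2p8, cyp2p9 and cyp2j20 were not called at that time, and neither was cyp2p10, which differed by 0.016 ± 0.22. The gene cyp2ad6 measured 7.29, 7.24 and 7.35 at the end of treatment, 7.57, 7.60 and 7.36 at 2 days, 7.91, 7.84 and 7.88 at 5 days and 8.57, 8.22 and 8.25 at 9 days, against 8.12, 8.46 and 8.38 in control hearts. Its 3 arrays at the end of treatment were the lowest, and at 9 days its arrays overlapped those of control hearts. It differed from control by -1.03 ± 0.11, adjusted p = 3.18e-06, at the end of treatment, by -0.80 ± 0.11 at 2 days and by -0.44 ± 0.11 at 5 days. At 9 days the difference was 0.031 ± 0.11, with a 95% interval of -0.20 to 0.26. Against the end of treatment cyp2ad6 was higher by 0.59 ± 0.11 at 5 days and by 1.06 ± 0.11 at 9 days (adjusted p = 4.57e-06). The call against control at 5 days was lost without control replicate 2 or 3 or 5 day replicate 2 or 3 (-0.44 to -0.37, adjusted p from 0.0579 to 0.0942), and with adjustment over every transcript cluster (adjusted p = 0.0691).

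The next genes of the run, cyp2ad3 and cyp2p6, had smaller falls. The values of cyp2ad3 were 5.94, 5.83 and 6.13 at the end of treatment, 6.22, 6.34 and 6.09 at 2 days, 6.40, 6.29 and 6.25 at 5 days and 6.61, 6.46 and 6.65 at 9 days, against 6.28, 6.59 and 6.36 in control hearts. It differed from control by -0.45 ± 0.12, adjusted p = 0.00865, at the end of treatment, and from the end of treatment by 0.61 ± 0.12, adjusted p = 0.00125, at 9 days. The first of these calls was lost without control replicate 2 (-0.35, adjusted p = 0.0512). In killifish, enzymes of the CYP2P branch oxidise arachidonic acid. Here cyp2p6 measured 7.20, 7.30 and 7.28 at the end of treatment, 7.60, 7.73 and 7.35 at 2 days, 7.66, 7.31 and 7.55 at 5 days and 7.91, 7.88 and 8.22 at 9 days, against 7.75, 7.80 and 7.63 in control hearts. All 3 end of treatment arrays lay below all others of this gene. It differed from control by -0.46 ± 0.12 at the end of treatment (1.38-fold lower, under a minimum of 1.5-fold, adjusted p = 0.00803), and from the end of treatment by 0.74 ± 0.12 at 9 days (adjusted p = 2.82e-04). At 9 days its arrays were all above control, by 0.28 ± 0.12, and the test was not passed (adjusted p = 0.18).

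**Figure D3:**
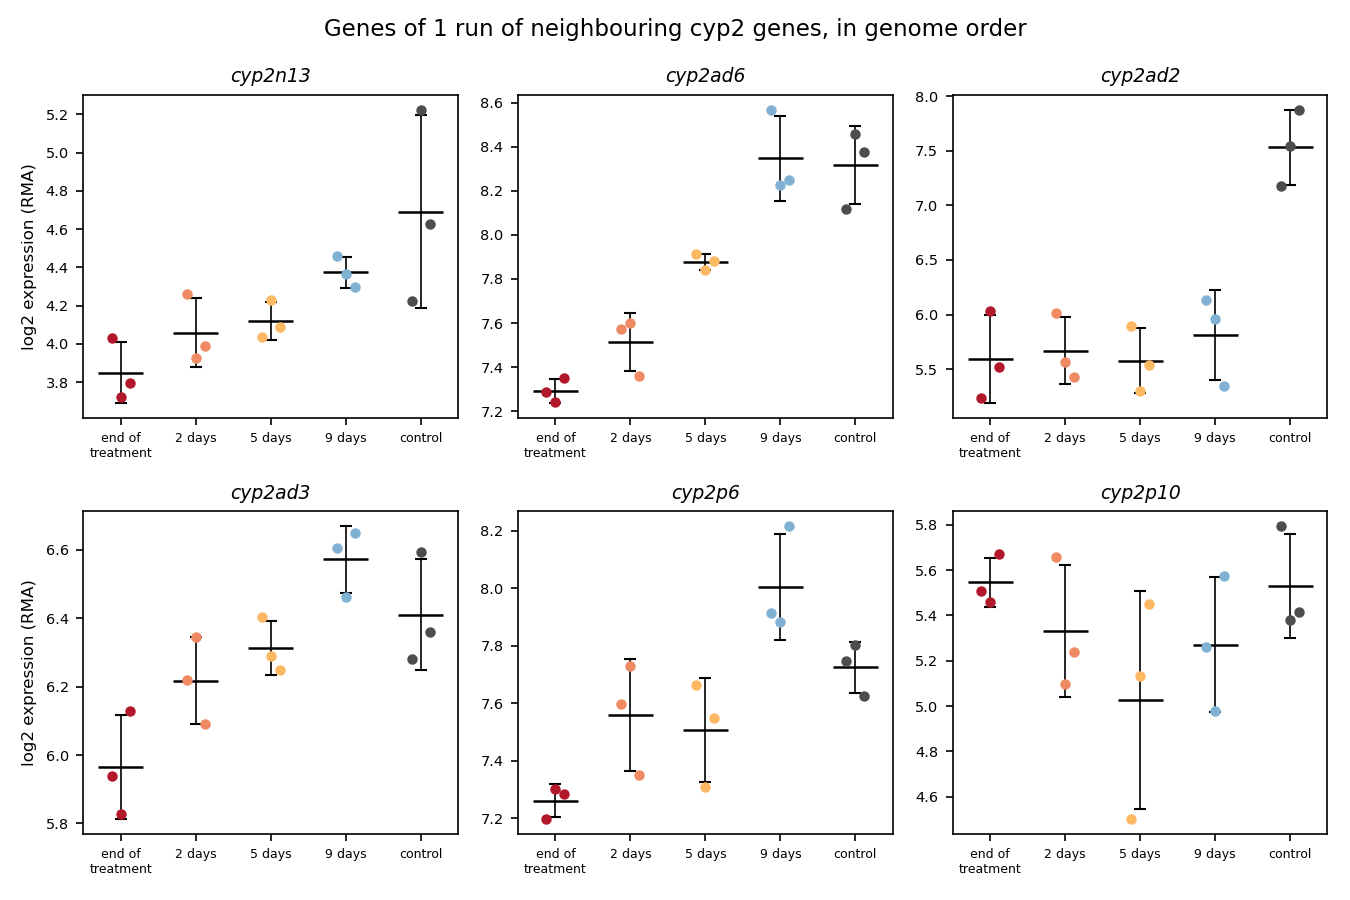
Log2 expression (vertical axes, 1 scale per gene) of 6 genes of the run of neighbouring cyp2 genes, in genome order, on the arrays of each group. Points are arrays, lines are means and bars are ± SD (n = 3). At 9 days cyp2ad2 remains between 5.35 and 6.14, against 7.18 to 7.87 in control hearts, while cyp2ad6 lies between 8.22 and 8.57, against 8.12 to 8.46.

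Another run, of 9 neighbouring members of the fish branch CYP2AA, held 2 bright ones, cyp2aa6 and cyp2aa7, which neighbour each other among the members of this run. Both rose at the end of treatment. The gene cyp2aa6 measured 8.73, 8.62 and 8.97 at the end of treatment, 8.62, 8.38 and 8.52 at 2 days, 8.83, 8.66 and 8.54 at 5 days and 8.79, 8.77 and 8.69 at 9 days, against 8.12, 7.82 and 7.52 in control hearts. All 12 arrays of treated fish lay above the control arrays. Its differences from control were 0.95 ± 0.13, 0.69 ± 0.13, 0.86 ± 0.13 and 0.93 ± 0.13 at the end of treatment and after 2, 5 and 9 days, the last a 1.91-fold rise (adjusted p = 6.14e-04). Against the end of treatment it differed at 9 days by -0.020 ± 0.13, with a 95% interval of -0.30 to 0.26.

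Its neighbour cyp2aa7 had the largest rise among the bright P450 genes, and its arrays scattered more. It measured 7.47, 6.84 and 7.51 at the end of treatment, 6.85, 5.58 and 6.39 at 2 days, 6.33, 6.48 and 6.50 at 5 days and 6.28, 6.44 and 5.58 at 9 days, against 5.87, 4.97 and 4.73 in control hearts. The rise was 2.09 ± 0.32, adjusted p = 1.07e-04, at the end of treatment, and at 9 days the gene had fallen by 2.25-fold relative to the end of treatment (-1.17 ± 0.32, adjusted p = 0.0143). That fall was lost without end of treatment replicate 1 or 3 or 9 day replicate 3 (-1.07 to -0.91, adjusted p from 0.0575 to 0.077), and with adjustment over every transcript cluster (adjusted p = 0.06). Against control it differed by 1.09 ± 0.32 at 2 days, 1.25 ± 0.32 at 5 days and 0.92 ± 0.32 at 9 days, and the last did not pass the test (adjusted p = 0.0918). The 2 day call was lost without control replicate 2 or 3 or 2 day replicate 1 or 3 (0.80 to 1.03, adjusted p from 0.107 to 0.157), and without the variance trend, with a robust variance, with adjustment over every transcript cluster and with the 6 arrays fitted alone (adjusted p from 0.0532 to 0.116). The 5 day call was lost without control replicate 2 or 3 or 5 day replicate 2 or 3 (1.02 to 1.23, adjusted p from 0.0737 to 0.112), and with a robust variance and with adjustment over every transcript cluster (adjusted p from 0.06 to 0.0924). Without control replicate 1 the 9 day difference was 1.25 and passed the test (adjusted p = 0.0309).

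The genes cyp3c1 and cyp2u1 stayed above control throughout. CYP3 enzymes oxidise steroids and foreign compounds, and human CYP2U1 hydroxylates long fatty acids. The signal of cyp3c1 was 7.81, 7.50 and 7.69 at the end of treatment, 7.65, 7.74 and 7.46 at 2 days, 7.67, 7.56 and 7.27 at 5 days and 7.93, 7.58 and 7.95 at 9 days, against 6.91, 6.92 and 6.86 in control hearts. The lowest array of treated fish was above the highest control array. It rose by 0.77 ± 0.13 at the end of treatment, 0.72 ± 0.13 at 2 days, 0.60 ± 0.13 at 5 days and 0.93 ± 0.13 at 9 days (1.9-fold, adjusted p = 4.83e-04). The gene cyp2u1 measured 6.49, 6.41 and 6.60 at the end of treatment, 6.21, 6.28 and 6.41 at 2 days, 6.22, 6.34 and 6.18 at 5 days and 6.71, 6.50 and 6.68 at 9 days, against 5.85, 5.68 and 5.94 in control hearts. Here too the groups did not overlap with control. Its rises were 0.68 ± 0.11, 0.48 ± 0.11, 0.43 ± 0.11 and 0.81 ± 0.11 at the same times, with adjusted p = 4.21e-04 at 9 days. The 2 and 5 day rises (1.4-fold and 1.34-fold) lie under a minimum of 1.5-fold. The 5 day call was lost without control replicate 1 or 2 or 5 day replicate 2 (0.36 to 0.44, adjusted p from 0.0575 to 0.0967), and with adjustment over every transcript cluster and with the 6 arrays fitted alone (adjusted p from 0.0591 to 0.094).

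**Figure D4:**
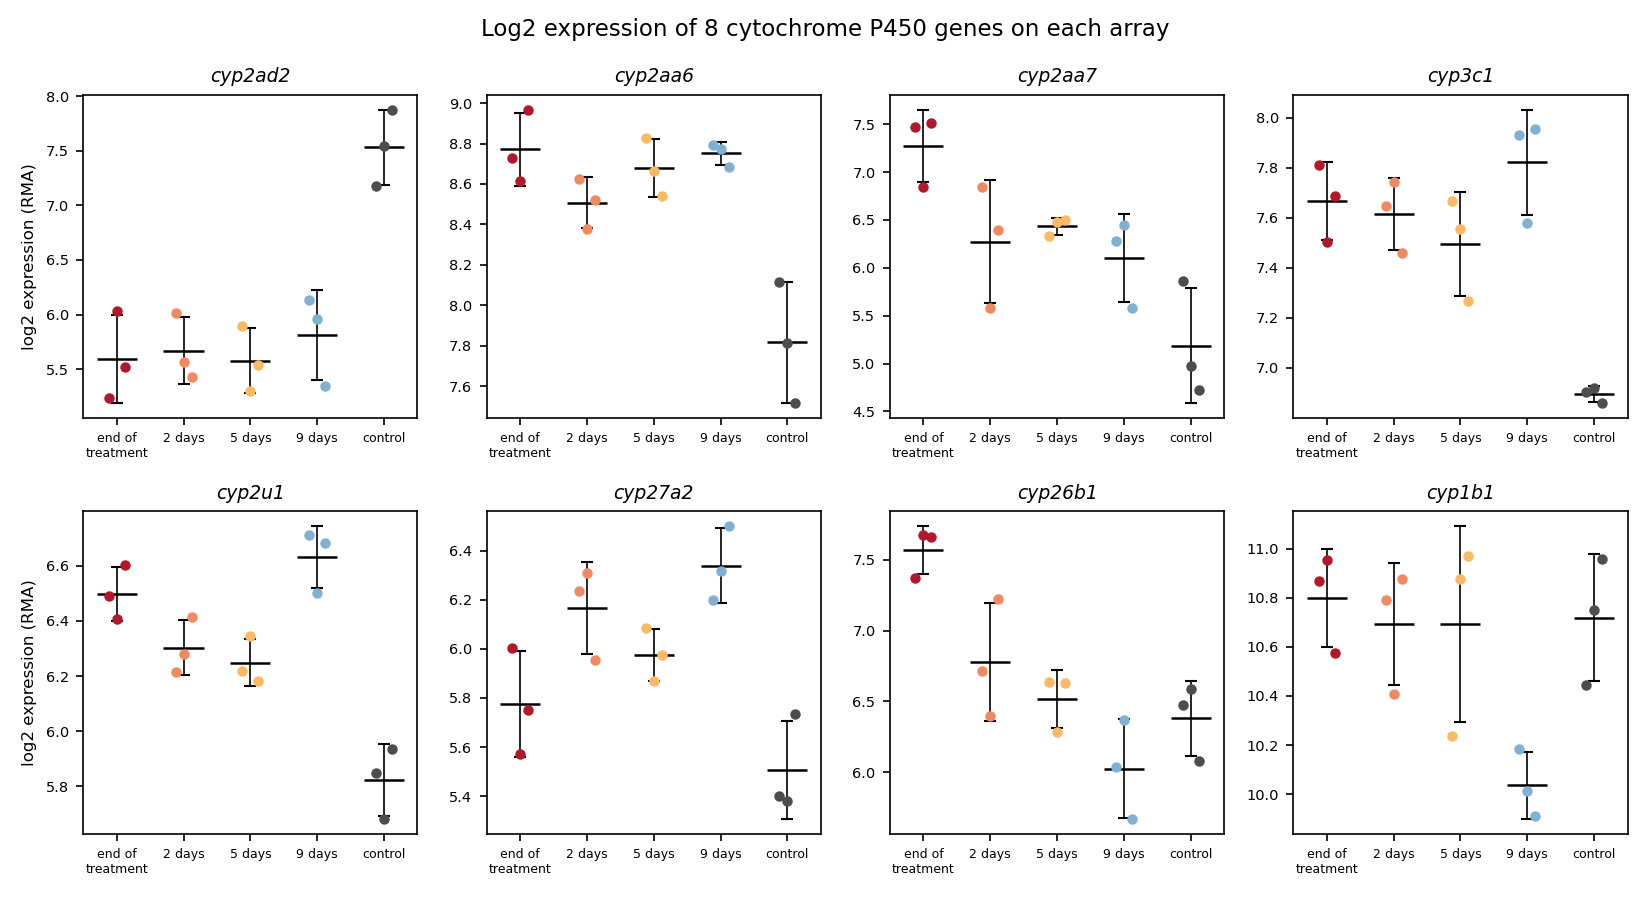
Log2 expression (vertical axes, 1 scale per gene) of 8 bright P450 genes on the 3 arrays of each group, with means (lines) and ± SD (bars). All treated arrays lie below control for cyp2ad2 and above control for cyp2aa6, cyp3c1 and cyp2u1. For cyp1b1 the lowest arrays are the 3 at 9 days, between 9.91 and 10.18.

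The bright gene cyp2ae1, also of family 2, measured 7.10, 6.19 and 6.64 at the end of treatment, 6.21, 5.61 and 6.28 at 2 days, 6.19, 6.21 and 6.24 at 5 days and 5.86, 6.47 and 6.28 at 9 days, against 6.20, 5.69 and 5.91 in control hearts. End of treatment replicate 2 lay just below control replicate 1. The rise was 0.71 ± 0.22, adjusted p = 0.0253, at the end of treatment, and 0.28 or less afterwards. It was lost without control replicate 2 or 3 or end of treatment replicate 1 or 3 (0.48 to 0.71, adjusted p from 0.0611 to 0.146), and with adjustment over every transcript cluster (adjusted p = 0.0805).

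Family 1 holds well known targets of the aryl hydrocarbon receptor, and cyp1b1 oxidises oestrogens and retinoids. It measured 10.87, 10.95 and 10.57 at the end of treatment, 10.79, 10.41 and 10.88 at 2 days, 10.24, 10.87 and 10.97 at 5 days and 10.18, 10.01 and 9.91 at 9 days, against 10.45, 10.75 and 10.96 in control hearts. The 3 arrays at 9 days were below all other arrays. It differed from control by 0.080 ± 0.18, -0.026 ± 0.18 and -0.025 ± 0.18 at the first 3 times, and fell at 9 days by 1.6-fold against control (-0.68 ± 0.18, adjusted p = 0.0255) and by 1.7-fold against the end of treatment (-0.76 ± 0.18, adjusted p = 0.00514). The call against control was lost without control replicate 2 or 3 or 9 day replicate 2 or 3 (-0.67 to -0.56, adjusted p from 0.0691 to 0.105), and without the variance trend and with adjustment over every transcript cluster (adjusted p from 0.0528 to 0.0936). The family's other bright member, cyp1d1, differed from control by -0.13 ± 0.13, -0.25 ± 0.13, -0.35 ± 0.13 and -0.37 ± 0.13, and passed no test. Of 13 measured genes of the Ahr pathway outside the P450 family, 2 rose and 1 fell at the end of treatment, which is 23.1%, beside 24.2% of all genes, with a median difference of 0.066. They were the receptor gene ahr1b (0.52 ± 0.14), nqo1, a quinone reductase (0.44 ± 0.12), and ahr2 (-0.25 ± 0.072), while tiparp, a feedback inhibitor of the receptor, differed by 0.29 ± 0.12 and was not called. The call of ahr1b was lost without control replicate 2 or end of treatment replicate 1 (0.42 to 0.43, adjusted p from 0.0556 to 0.0584). That of nqo1 was lost without control replicate 2 or end of treatment replicate 1 (0.36 to 0.37, adjusted p from 0.0543 to 0.0549). That of ahr2 was lost without control replicate 2 or 3 or end of treatment replicate 2 (-0.24 to -0.20, adjusted p from 0.051 to 0.0931), and without the variance trend (adjusted p = 0.0565). At 2 days 1 of the 13 was lower than control (ahr2, -0.26 ± 0.072), which is 7.69%, beside 11.8% of all genes. At 5 days limma called 0 of the 13, with 2 at an unadjusted p under 0.05. At 9 days, where cyp1b1 fell, 1 was higher (nqo1, 0.49 ± 0.12), which is 7.69%, beside 7.54%. Whether these 2 later calls held with arrays left out is not given here.

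The gene cyp26b1, whose enzyme breaks down retinoic acid, rose at the end of treatment and fell during recovery. It measured 7.37, 7.68 and 7.66 at the end of treatment, 6.71, 6.39 and 7.22 at 2 days, 6.64, 6.28 and 6.63 at 5 days and 6.04, 6.37 and 5.67 at 9 days, against 6.47, 6.58 and 6.08 in control hearts. The end of treatment arrays were all above every other array. The rise was 2.28-fold (1.19 ± 0.20, adjusted p = 3.50e-04). Against the end of treatment it differed by -0.79 ± 0.20 at 2 days, -1.05 ± 0.20 at 5 days and -1.54 ± 0.20 at 9 days (2.91-fold lower, adjusted p = 5.13e-05). The 2 day fall was lost without end of treatment replicate 2 or 3 or 2 day replicate 1 or 2 (-0.76 to -0.60, adjusted p from 0.0779 to 0.122), and with adjustment over every transcript cluster (adjusted p = 0.0921). Against control the later differences were 0.40 ± 0.20, 0.14 ± 0.20 and -0.35 ± 0.20, and none passed the test. Its relatives cyp26a1 and cyp26c1 were dim, with means of 3.80 and 3.55.

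Of 24 measured retinoid pathway genes 4 rose and 2 fell at the end of treatment, which is 25%, beside 24.2% of all genes, with a median of 0.042. The carrier gene rbp4 fell by 2.57-fold (-1.36 ± 0.12, adjusted p = 3.61e-07), at 8.54, 8.68 and 8.67 at the end of treatment, against 9.97, 10.12 and 9.88 in control hearts. The retinoid reductase gene dhrs3a rose by 0.73 ± 0.17, the retinoic acid binding protein gene crabp2b by 0.68 ± 0.16 and the transglutaminase gene tgm2b by 0.98 ± 0.18. At 2 days 1 of the 24 was lower than control, which is 4.17%, beside 11.8% of all genes. At 5 days limma called 0 of the 24 against control, with 2 at an unadjusted p under 0.05. At 9 days 1 was higher and 1 lower, which is 8.33%, beside 7.54% of all genes.

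Among sterol enzymes, cyp27a1.1 and cyp27a2 encode relatives of the mitochondrial sterol 27-hydroxylase. The gene cyp27a2 measured 6.003, 5.57 and 5.75 at the end of treatment, 6.24, 6.31 and 5.96 at 2 days, 6.08, 5.87 and 5.97 at 5 days and 6.20, 6.32 and 6.50 at 9 days, against 5.40, 5.38 and 5.74 in control hearts. All 9 arrays of recovering fish lay above the control arrays, and those at the end of treatment overlapped control. It differed by 0.27 ± 0.14 at the end of treatment (adjusted p = 0.203), 0.66 ± 0.14 at 2 days, 0.47 ± 0.14 at 5 days (adjusted p = 0.0614) and 0.83 ± 0.14 at 9 days (1.78-fold, adjusted p = 0.00246). The 9 day value was above the end of treatment by 0.56 ± 0.14, adjusted p = 0.00964. This last call was lost without end of treatment replicate 2 (0.46, adjusted p = 0.0585). The 5 day difference passed the test without control replicate 3 (0.59, adjusted p = 0.04) and with the third of genes of lowest mean left out (adjusted p = 0.0435).

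The gene cyp27a1.1 measured 6.67, 6.41 and 6.66 at the end of treatment, 6.20, 6.26 and 6.58 at 2 days, 6.63, 6.46 and 6.41 at 5 days and 6.65, 6.70 and 6.47 at 9 days, against 6.13, 6.17 and 6.16 in control hearts. Every treated array was above the 3 control arrays. It rose by 0.42 ± 0.12, adjusted p = 0.0138, at the end of treatment, and by 0.45 ± 0.12, adjusted p = 0.0285, at 9 days. At 2 and 5 days, with means of 6.35 and 6.50 against 6.15 in control hearts, it was not called. The first call was lost without end of treatment replicate 1 or 3 (0.38, adjusted p from 0.0572 to 0.06). The 9 day call was lost without control replicate 1, 2 or 3 or 9 day replicate 1 or 2 (0.40 to 0.46, adjusted p from 0.0676 to 0.0999), and with adjustment over every transcript cluster (adjusted p = 0.0817).

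The other 6 bright genes passed no test against control or the end of treatment. They were cyp51, which removes a methyl group in cholesterol synthesis, cyp7b1, an oxysterol hydroxylase, cyp46a1.2, a relative of cholesterol 24-hydroxylase, cyp20a1, an orphan enzyme, and the family 1 and 2 genes cyp1d1 and cyp2p10. Differences of cyp51 from control were 0.14 ± 0.19, -0.093 ± 0.19, 0.23 ± 0.19 and -0.26 ± 0.19, with 95% intervals of -0.26 to 0.53 at the end of treatment and -0.66 to 0.13 at 9 days. Its 5 day arrays read 5.56, 6.60 and 6.12, the widest spread of its groups, against 5.84, 5.90 and 5.84 in control hearts. Without 5 day replicate 1 its difference between 9 days and the end of treatment, -0.40 ± 0.19, passed the test (-0.40, adjusted p = 0.0475). The largest of the other differences from control were -0.50 ± 0.22 for cyp2p10, -0.46 ± 0.20 for cyp46a1.2 and -0.42 ± 0.19 for cyp7b1, all at 5 days, and 0.17 ± 0.18 for cyp20a1 at 2 days. Without 5 day replicate 3 the difference of cyp2p10 between 5 days and the end of treatment was -0.73 and passed the test (adjusted p = 0.0467), in place of -0.52 ± 0.22.

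Of 27 measured genes of the sterol pathway 3 rose and 5 fell at the end of treatment, which is 29.6%, beside 24.2% of all genes and 36% of genes with a mean of 5 or more, with a median of 0.076. At 2 days 4 rose and 1 fell, which is 18.5%, beside 11.8% and 18%, with a median of 0.057. The gene msmo1, which acts at a later step than cyp51, measured 9.00, 8.89 and 8.98 at the end of treatment, 8.27, 8.64 and 8.45 at 2 days, 8.22, 8.70 and 8.51 at 5 days and 8.47, 8.38 and 8.53 at 9 days, against 7.68, 7.80 and 7.75 in control hearts. It rose by 1.21 ± 0.11 at the end of treatment and was still 0.71 ± 0.11 above control at 9 days (adjusted p = 0.00144). The gene hsd17b7, a further enzyme of the same steps, rose by 0.99 ± 0.15 at the end of treatment and by 1.84 ± 0.15 at 2 days (adjusted p = 7.79e-07). The sterol sensor gene scap fell by 1.37-fold at the end of treatment (-0.46 ± 0.081, adjusted p = 4.84e-04), and fdft1, the squalene synthase gene, was 0.43 ± 0.086, adjusted p = 0.00341, above control at 2 days. Of 28 measured genes of the steroid and vitamin D pathway 4 rose and 4 fell at the end of treatment, which is 28.6%, beside 24.2% of all genes and 36% of genes with a mean of 5 or more, with a median of -0.013. The mitochondrial protein gene tspo was above control at all 4 times, by 0.62 ± 0.061, 0.73 ± 0.061, 0.55 ± 0.061 and 0.61 ± 0.061. The vitamin D receptor gene vdra differed by -0.47 ± 0.11, adjusted p = 0.00438, at the end of treatment, and hsd17b10, a mitochondrial dehydrogenase gene, by -0.72 ± 0.12, adjusted p = 0.00179, at 9 days. The dim gene hsd17b1, of an oestradiol-making enzyme, rose by 0.73 ± 0.15, adjusted p = 0.00119, at the end of treatment.

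Recovery was also set against the end of treatment. At 2 days 1 bright P450 gene was called, cyp26b1, which was lower, beside 12.5% of genes with a mean of 5 or more (5.72% higher and 6.73% lower). At 5 days 2 were called, cyp2ad6 (higher) and cyp26b1 (lower), beside 18.9% (6.68% higher and 12.2% lower). At 9 days 7 were called, beside 28.6% (11.7% higher and 16.9% lower): cyp2ad3, cyp2ad6, cyp2p6 and cyp27a2 were higher and cyp1b1, cyp26b1 and cyp2aa7 lower. Those 7 are 36.8% of the 19. The 2 day count was 0 without 2 day replicate 2 and 0 without end of treatment replicate 3 (limma, 2 and 6 at an unadjusted p under 0.05), and 2 without control replicate 1 or without 9 day replicate 3, where cyp2aa7 was the gene added. Without end of treatment replicate 2 or 2 day replicate 1 the count stayed at 1. There the call of cyp26b1 was lost, so the gene called was another. Between 5 and 2 days limma called 0 of the 19, with 1 at an unadjusted p under 0.05, beside 0.247%. Between 9 and 5 days 4 were called, beside 9.46% (4.74% higher and 4.72% lower): cyp2ad6 (0.47 ± 0.11), cyp2p6 (0.50 ± 0.12) and cyp2u1 (0.38 ± 0.11) were higher and cyp1b1 (-0.66 ± 0.18) lower at 9 days. This last count was 0 without 5 day replicate 2 or 3 (limma, 6 at an unadjusted p under 0.05 in both), 1 without 9 day replicate 3 and 2 without 9 day replicate 1.

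The 56 dim members had means between 2.23 and 4.98, with a median of 3.47. Members just under the border were cyp17a2 (4.98), a steroid enzyme gene of fish, and cyp27b1 (4.85), whose enzyme activates vitamin D, and just above it were cyp1d1 (5.19) and cyp7b1 (5.32). Against control 2, 1, 1 and 2 dim members were called at the end of treatment and after 2, 5 and 9 days, where genes with a mean under 5 were called at 7.36%, 2.85%, 1.51% and 0.911%. Against the end of treatment 1, 3 and 2 were called at 2, 5 and 9 days, beside 1.54%, 2.99% and 5.22%. Against control 1, 0, 1 and 0 dim members were higher and 1, 1, 0 and 2 lower at the 4 times. Low signals can leave less room to see a fall, which was not tested here. The gene cyp3c4, a neighbour of cyp3c1, measured 3.97, 4.69 and 4.04 at the end of treatment, 3.09, 3.50 and 3.53 at 2 days, 2.86, 3.42 and 3.36 at 5 days and 3.30, 3.74 and 3.64 at 9 days, against 3.16, 2.90 and 3.48 in control hearts. It rose by 1.05 ± 0.22, adjusted p = 0.0017, at the end of treatment, and its 5 day level differed from that by -1.02 ± 0.22. Its end of treatment arrays lay above all others of this gene. The first gene of the cyp2 run, cyp2n13, read 4.03, 3.72 and 3.80 at the end of treatment, against 4.22, 5.22 and 4.62 in control hearts, a difference of -0.84 ± 0.19, adjusted p = 0.00374. Its 2 day difference, -0.63 ± 0.19, had adjusted p = 0.0431. That call was lost without control replicate 2 or 3 or end of treatment replicate 2 or 3 or 2 day replicate 2 or 3 or 5 day replicate 1 or 3 or 9 day replicate 1 or 2 (-0.67 to -0.37, adjusted p from 0.0506 to 0.194), and with arrays centred on their median, with adjustment over every transcript cluster and with the 6 arrays fitted alone (adjusted p from 0.0554 to 0.125).

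The dim gene cyp46a1.4 lies beside cyp46a1.2 in the assembly. It measured 5.01, 5.32 and 5.50 at the end of treatment, 5.37, 4.52 and 4.44 at 2 days, 3.84, 4.95 and 4.16 at 5 days and 3.89, 3.79 and 3.12 at 9 days, against 4.42, 5.55 and 4.94 in control hearts. At 9 days it differed from control by -1.37 ± 0.32, adjusted p = 0.0162, and from the end of treatment by -1.68 ± 0.32, adjusted p = 0.0014. The call against control was lost without control replicate 2 or 9 day replicate 3 (-1.13 to -1.08, adjusted p from 0.0791 to 0.0847), and with adjustment over every transcript cluster (adjusted p = 0.0682). Its 9 day arrays lay below all control arrays.

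For cyp2p9, the gene with the lowest mean of family 2, the 5 day arrays were 2.99, 2.70 and 2.60. Control hearts had 2.13, 1.85 and 2.26, a difference of 0.68 ± 0.16. Its call was lost without control replicate 2 or 5 day replicate 1 (0.57, adjusted p from 0.0608 to 0.0651), and with adjustment over every transcript cluster (adjusted p = 0.0515). The cholesterol side chain enzyme gene cyp11a1.2 (-0.54 ± 0.16 at 9 days against control) and cyp27a3 (0.52 ± 0.15 at 5 days against the end of treatment) passed with adjusted p = 0.0452 and adjusted p = 0.0343. The call of cyp11a1.2 was lost without control replicate 1, 2 or 3 or end of treatment replicate 2 or 2 day replicate 1, 2 or 3 or 9 day replicate 1, 2 or 3 (-0.61 to -0.43, adjusted p from 0.0534 to 0.158), and with arrays centred on their median, with adjustment over every transcript cluster and with the 6 arrays fitted alone (adjusted p from 0.0516 to 0.131). That of cyp27a3 was lost without end of treatment replicate 2 or 3 or 5 day replicate 1 or 2 (0.39 to 0.54, adjusted p from 0.0742 to 0.164), and with adjustment over every transcript cluster and with the 6 arrays fitted alone (adjusted p from 0.0789 to 0.108). The aromatase genes cyp19a1a and cyp19a1b had means of 3.78 and 3.46, and cyp24a1, whose enzyme breaks down vitamin D, had 4.73. All 7 members of the cyp2k run and all 4 of the cyp2x run were dim.

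RNA of genes whose proteins serve P450 enzymes was also measured. Of 16 measured electron donor and haem supply genes 8 rose at the end of treatment and the other 8 were not called. These 8 are 50% of the list, beside 21.1% of genes with a mean of 5 or more called higher. The list's median was 0.24, and that over all genes 0.0103. The oxidoreductase gene pora measured 9.61, 9.59 and 9.39 at the end of treatment, 8.92, 9.06 and 9.19 at 2 days, 8.83, 8.94 and 9.00 at 5 days and 8.77, 8.61 and 8.49 at 9 days, against 8.90, 9.06 and 8.98 in control hearts. It rose by 0.55 ± 0.095, adjusted p = 3.73e-04, at the end of treatment, and differed by -0.36 ± 0.095 at 9 days. The 9 day call was lost without control replicate 2 or 3 or 9 day replicate 2 or 3 (-0.36 to -0.29, adjusted p from 0.0731 to 0.136), and without the variance trend, with adjustment over every transcript cluster and with the 6 arrays fitted alone (adjusted p from 0.0597 to 0.0883). The first enzyme gene of haem synthesis in most tissues, alas1, rose by 0.58 ± 0.10, adjusted p = 4.57e-04, the cytochrome b5 reductase gene cyb5r3 by 0.45 ± 0.11 and pgrmc1, a haem-binding partner of P450 enzymes, by 0.48 ± 0.12. At 2 days 2 of the 16 were higher than control, which is 12.5%, beside 11.8% of all genes and 18% of genes with a mean of 5 or more. At 5 days limma called 0 of the 16, with 4 at an unadjusted p under 0.05. At 9 days 2 were higher and 1 lower than control, which is 18.8%, beside 7.54% and 12.2%.

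Of 21 measured xenobiotic nuclear receptor genes and partners 2 fell at the end of treatment, with a median over the list of -0.12. These are 9.52%, beside 24.2% of all genes and 36% of genes with a mean of 5 or more. They were pparab, a fatty acid receptor gene (-0.88 ± 0.14, adjusted p = 1.33e-04), and nr1i2, the pregnane X receptor gene (-0.39 ± 0.12, adjusted p = 0.0243). The call of nr1i2 was lost without control replicate 1 or end of treatment replicate 1, 2 or 3 (-0.40 to -0.29, adjusted p from 0.0549 to 0.134), and with adjustment over every transcript cluster (adjusted p = 0.0722). At 9 days 14.3% of the 21 were called, beside 7.54% of all genes and 12.2% of genes with a mean of 5 or more. Of these, 2 were higher than control, rxrbb (0.30 ± 0.070, adjusted p = 0.0149) and pparg (0.56 ± 0.15, adjusted p = 0.0261), and 1 was lower, pparab (-0.53 ± 0.14). The call of rxrbb was lost without control replicate 1 or 2 or 9 day replicate 1 (0.27 to 0.29, adjusted p from 0.0518 to 0.0639), and with the 6 arrays fitted alone (adjusted p = 0.0615). That of pparg was lost without control replicate 2 or 3 or 9 day replicate 2 or 3 (0.47 to 0.57, adjusted p from 0.0655 to 0.104), and with adjustment over every transcript cluster (adjusted p = 0.0905). That of pparab was lost without control replicate 1 or 2 or 9 day replicate 3 (-0.53 to -0.42, adjusted p from 0.0713 to 0.123), and without the variance trend and with adjustment over every transcript cluster (adjusted p from 0.0564 to 0.0886).

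Of 35 measured conjugation enzymes 9 rose and 6 fell at the end of treatment, which is 42.9%, beside 24.2% of all genes and 36% of genes with a mean of 5 or more, with a median of -0.084. At 2 days 7 were higher and 4 lower than control, which is 31.4%, beside 11.8% and 18%. At 5 days 7 were higher and 1 lower, which is 22.9%, beside 6.37% and 9.76%. At 9 days 4 were higher, which is 11.4%, beside 7.54% and 12.2%. The sulfotransferase gene sult2st3 was higher than control by 2.54 ± 0.19 at the end of treatment and by 1.02 ± 0.19 at 9 days, while sult2st1 differed by -1.96 ± 0.16 at the end of treatment and by 0.27 ± 0.16 at 9 days. The glutathione transferase gene gsto1 rose by 1.15 ± 0.20 and the acetyltransferase gene nat16 differed by -1.03 ± 0.19, both at the end of treatment.

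Arachidonic acid is also used by cyclooxygenases and lipoxygenases. Of 29 measured eicosanoid genes 14 rose and 2 fell at the end of treatment, which is 55.2%, beside 24.2% of all genes and 36% of genes with a mean of 5 or more, with a median of 0.45. At 9 days 5 rose and 1 fell, which is 20.7%, beside 7.54% and 12.2%, with a median of 0.18. The cyclooxygenase gene ptgs2b was up by 2.87 ± 0.30 at the end of treatment and differed by -0.10 ± 0.30 at 9 days, and ptgs2a by 1.71 ± 0.17 and 0.34 ± 0.17. The prostaglandin dehydrogenase gene hpgd was 1.49 ± 0.18 above control at the end of treatment and 0.89 ± 0.18 at 9 days. The carbonyl reductase gene cbr1l was 1.25 ± 0.14 above control at the end of treatment. The P450 genes tbxas1 and ptgis carry other symbols and are no members. The thromboxane synthase gene tbxas1 measured 6.97, 7.20 and 7.20 at the end of treatment, 7.20, 7.12 and 7.07 at 2 days, 6.97, 7.09 and 6.96 at 5 days and 7.86, 7.76 and 7.81 at 9 days, against 7.28, 7.05 and 7.20 in control hearts. Its 9 day arrays were above all others, with a rise of 0.63 ± 0.093, adjusted p = 9.48e-04, while the earlier differences were -0.053 ± 0.093, -0.048 ± 0.093 and -0.17 ± 0.093. The prostacyclin synthase gene ptgis was dim, with a mean of 3.72, and differed by 0.24 ± 0.20 at the end of treatment.

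Markers of other cells also differed from control. Those measured here all had a mean of 5 or more. Of such genes 36%, 18%, 9.76% and 12.2% were called at the end of treatment and after 2, 5 and 9 days. The shares called higher were 21.1%, 11.5%, 5.77% and 6.83%, and those called lower 14.9%, 6.51%, 3.99% and 5.32%. All 4 measured macrophage markers, of 6 listed, were higher than control at the end of treatment, 2 days and 9 days, and 3 of 4 at 5 days. Their mean log2 level ran from 8.77 to 8.95 at the end of treatment, 8.60 to 8.92 at 2 days, 8.26 to 8.53 at 5 days and 8.40 to 8.57 at 9 days, against 7.27 to 7.53 in control hearts. Of 5 measured red cell markers 4, 5, 5 and 4 were higher at the 4 times, with mean levels of 9.65 to 10.11, 10.49 to 10.77, 9.87 to 10.16 and 9.29 to 9.42, against 7.90 to 8.92 in control hearts. For both marker levels all 12 treated arrays were above control. Of 7 epicardium and fibroblast markers 3, 2, 1 and 3 were lower, with mean levels of 7.94 to 8.05, 7.78 to 8.08, 8.01 to 8.11 and 7.61 to 8.12, against 8.08 to 8.61 in control hearts. Of 5 smooth muscle and pericyte markers 1 rose and 1 fell at the end of treatment. At 2, 5 and 9 days 1, 1 and 2 of them were lower. Of 5 measured endothelium and endocardium markers 2, 1, 1 and 1 were higher and 2, 2, 1 and 1 lower at the 4 times. Of 6 cardiomyocyte markers 1 was higher at each of the 4 times, and 3, 3, 1 and 1 were lower. The part of these cells in the P450 results was not tested, and in whole ventricles fewer cells of a type and less RNA per cell cannot be told apart.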

How the data were processed

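The deposited values are log2 expression values that the authors made with RMA in the R package oligo, per the submitters' processing notes. RMA corrects background, makes the arrays' quantiles equal and summarises probes. The version of oligo and the level of summary were not given in these sources. Per the labels, 250 ng of total RNA was used per array. All 75212 transcript clusters on 15 arrays were read. The array's annotation gave 1 symbol for 20806 clusters, several entries (repeats of a symbol included) for 855 and none for 53551. A gene's cluster with the highest mean was used, which left 19260 genes. Of the members, 74 were placed in the gene table of GRCz12tu by gene ID and 1 (cyp2aa7) by symbol. It was used for names and neighbours only, where a run has gaps of under 100 kb between members.

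The linear model (R 4.3.3, limma 3.58.1) had 1 mean for each group and an intensity trend of the variance. Tests were 2-sided and adjusted over all genes within each of 9 comparisons. The fit was tested on simulated data. Tables and figures used Python 3.11.15. The members and lists were chosen with earlier results of these data known. Named members are bright genes called against control or the end of treatment, those called among the dim ones, genes known for their function, and up to 4 genes of each list with the smallest adjusted p. Alternatives changed the variance model, weights, scaling, filter, cluster choice, arrays, block and call rule. Only 4 members, all dim and not called, have several clusters. Taking the mean of a gene's clusters therefore left the values of every called member unchanged. No sequences were used. Labels do not say whether pools came from separate tanks, so p values measure the spread between pools.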

Additional observations from a re-analysis of the deposited data

Results flagged for a closer look

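Effects against control differed between time points for 12 of the 75 members. The later group was compared directly with the earlier one (limma, adjusted p under 0.05, n = 3 arrays per group). All times share the same control arrays, so this comparison is the difference of the effects themselves. Of all genes 7.98%, 12.3% and 19% were called at 2, 5 and 9 days against the end of treatment. Between 9 and 5 days 6.12% of all genes were called. The share of all genes called in any of these comparisons was not counted, and it is at least the 19% called at 9 days. The 12 members are therefore not a result about the members as a set. Among the bright genes, cyp26b1 differed from the end of treatment by -0.79 at 2 days, -1.05 at 5 days and -1.54 at 9 days. The gene cyp2ad6 differed from the end of treatment by 0.59 at 5 days and 1.06 at 9 days, and between 9 and 5 days by 0.47. For cyp2p6 the difference was 0.74 between 9 days and the end of treatment and 0.50 between 9 and 5 days. For cyp1b1 it was -0.76 between 9 days and the end of treatment and -0.66 between 9 and 5 days. Between 9 days and the end of treatment cyp2ad3 differed by 0.61, cyp27a2 by 0.56 and cyp2aa7 by -1.17, and between 9 and 5 days cyp2u1 differed by 0.38. The call of cyp1b1 between 9 and 5 days was lost without 5 day replicate 2 or 3 or 9 day replicate 2 or 3 (-0.65 to -0.52, adjusted p from 0.0906 to 0.159), and without the variance trend, with a robust variance, with adjustment over every transcript cluster and with the 6 arrays fitted alone (adjusted p from 0.061 to 0.13). That of cyp2ad6 was lost without 5 day replicate 2 or 3 or 9 day replicate 1 (0.36 to 0.47, adjusted p from 0.0526 to 0.0705), and with adjustment over every transcript cluster (adjusted p = 0.0587). That of cyp2p6 was lost without 5 day replicate 2 or 3 or 9 day replicate 3 (0.39 to 0.52, adjusted p from 0.0519 to 0.0964), and with adjustment over every transcript cluster and with the 6 arrays fitted alone (adjusted p from 0.0704 to 0.0705). That of cyp2u1 was lost without control replicate 1 or end of treatment replicate 1 or 2 or 2 day replicate 2 or 5 day replicate 1, 2 or 3 or 9 day replicate 1 or 3 (0.34 to 0.43, adjusted p from 0.0501 to 0.139), and with array weights, with adjustment over every transcript cluster and with the 6 arrays fitted alone (adjusted p from 0.0655 to 0.118). Losses of the other calls stand with the genes in the report.

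Among the dim genes, cyp3c4 differed from the end of treatment by -0.86 at 2 days, -1.02 at 5 days and -0.68 at 9 days. The gene cyp46a1.4 differed by -1.68 between 9 days and the end of treatment, and cyp27a3 by 0.52 between 5 days and the end of treatment. For cyp2p9 the difference was 0.60 between 5 days and the end of treatment and -0.65 between 9 and 5 days. The 2 day call of cyp3c4 was lost without end of treatment replicate 2 or 2 day replicate 1 (-0.72 to -0.64, adjusted p from 0.107 to 0.112), and with adjustment over every transcript cluster (adjusted p = 0.0839). Its 9 day call was lost without end of treatment replicate 2 or 9 day replicate 1 or 3 (-0.72 to -0.45, adjusted p from 0.0655 to 0.203), and with adjustment over every transcript cluster and with the 6 arrays fitted alone (adjusted p from 0.0567 to 0.121). The first call of cyp2p9 was lost without end of treatment replicate 2 or 3 or 5 day replicate 1 (0.48 to 0.57, adjusted p from 0.0592 to 0.089), and with adjustment over every transcript cluster (adjusted p = 0.0642). Its other call was lost without 5 day replicate 1 or 9 day replicate 2 or 3 (-0.65 to -0.54, adjusted p from 0.0606 to 0.0873), and with adjustment over every transcript cluster and with the 6 arrays fitted alone (adjusted p from 0.0591 to 0.0734). Groups of 3 arrays are too small for the check on single outlying arrays used here.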

How the results depend on the processing

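Of 53 called differences of P450 genes in the comparisons with control and with the end of treatment, 33 passed the test in every alternative fit that held the gene and with each array left out, and 20 were lost in at least 1. A minimum of 1.5-fold, applied on top of the test, would also end 2 of the 33, cyp2p6 at the end of treatment and cyp2u1 at 2 days, both against control. With that minimum 8, 6, 4 and 6 bright members were called against control at the 4 times. These stand beside 12%, 5.34%, 2.94% and 2.95% of all genes. Of the 8 at the end of treatment, 6 were higher and 2 lower. None of the called differences changed direction. With each array left out in turn, the number of bright members called against control ranged from 9 to 11 at the end of treatment (11 with all arrays), 6 to 7 at 2 days (7), 3 to 6 at 5 days (6) and 5 to 7 at 9 days (7). Against the end of treatment it ranged from 0 to 2 at 2 days (1), 2 to 3 at 5 days (2) and 6 to 8 at 9 days (7). Between 9 and 5 days it ranged from 0 to 4 (4), and in the F test from 10 to 13 (12). With adjustment over every transcript cluster, 3 members were called at 5 days against control, 0 at 2 days against the end of treatment (limma, 6 at an unadjusted p under 0.05) and 0 between 9 and 5 days (limma, 9 at an unadjusted p under 0.05). At 2 days against the end of treatment array weights gave 2 calls, and between 9 and 5 days a fit of the 6 arrays gave 1 and a minimum of 1.5-fold gave 1. The labels do not say whether a replicate number is shared between groups. Over 30 same-numbered pairs of arrays the correlation of deviations from group means ranged from -0.161 to 0.098. Of 15 arrays 0 correlated best with its own number. With n = 3 per group this does not settle whether arrays were paired. With the replicate number as a block, 2 bright members were called at 2 days against the end of treatment in place of 1, and no other count of bright members moved by over 1.5 times. The block ended the calls of cyp2n13 (2 days) and cyp11a1.2 (9 days) against control, cyp27a3 (5 days against the end of treatment) and cyp2u1 (9 against 5 days), with adjusted p from 0.0509 to 0.0622, and added cyp2aa7 (2 days against the end of treatment, adjusted p = 0.0435). The cause of these shifts was not tested. The number of arrays limits the precision, and no detection values were used, so the border at a mean log2 of 5 is not a detection limit.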
